A study of Mus musculus with 20 samples.

Results

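A set of 10 long noncoding RNAs (lncRNAs) was followed in the ribosome immunoprecipitation (IP) and the whole-tumor input of mammary tumors: Malat1, Neat1, Kcnq1ot1, Gas5, Snhg1, Snhg12, Snhg8, Dancr, Meg3 and Wincr1. They are 10 of the 55866 genes in the count table and were found there by symbol. They were chosen by their levels in IP against input in these libraries, so their IP-over-input values are given as a description, and no test of them is read. Of the 10, 9 had counts and 1, Kcnq1ot1, had none.

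All libraries came from female RiboTag EC mice (Rpl22HA/HA x Cdh5CreERT2, C57BL/6J), in which Cre recombinase driven by the endothelial Cdh5 promoter, once induced with tamoxifen, adds hemagglutinin (HA) to Rpl22, a protein of the large ribosomal subunit, in endothelial cells (ECs). The tamoxifen course began at 3 weeks and lasted 5 days, at 75 mg/kg. At 8 weeks, Py8119 cells, a mouse mammary carcinoma line, were placed in the mammary fat pad. Mice then received 25 mg/kg of 6-3-A6, a Notch4-blocking antibody, or control IgG for 10 days, from a tumor volume of 30 mm3 per the labels and 50 mm3 per the design text. From each of 10 tumors, 5 per treatment, the cleared homogenate (input) and the anti-HA IP were sequenced, which gave 20 libraries. RNA left in the pellet of the clearing spin is in neither fraction. The implanted tumor cells carry no tagged ribosomes.

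Long noncoding RNAs are transcripts with no known protein product. Malat1 stays in nuclear speckles, Neat1 builds paraspeckles, and Kcnq1ot1 and Meg3 are imprinted transcripts that act on chromatin. Small nucleolar RNA (snoRNA) host genes such as Gas5, Snhg1, Snhg8 and Snhg12 carry snoRNAs in their introns, and their spliced RNA reaches the cytoplasm, where that of Gas5 is known to be bound by ribosomes and then degraded by nonsense-mediated decay. Host genes of this class often begin with a 5′ terminal oligopyrimidine (TOP) tract, a C followed by further pyrimidines, which they share with ribosomal protein mRNAs.

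The starts of 4 snoRNA host members and of Wincr1 are shown because the tract is the sequence feature that host genes are known to share, and it played no role in choosing the members. Each line holds the 15 bases before and the 15 bases from an annotated RefSeq start on the gene's strand (GRCm38.p6), with the tract in capitals where one was found.
Gas5: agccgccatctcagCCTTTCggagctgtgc
Snhg12: ggccgttctcagtCCTTTCTCgcttcatcc
Snhg8: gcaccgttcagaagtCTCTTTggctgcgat
Wincr1: acaactcacctcttcctttctcctaggcaa
Snhg1: gttgttcttgtcggcctcatttttccttgt
These windows are chr1:161035151-161035180 (+) for Gas5, chr4:132308663-132308692 (+) for Snhg12, chr3:123508322-123508351 (-) for Snhg8, chr4:89050292-89050321 (+) for Wincr1 and chr19:8723472-8723501 (+) for Snhg1. A tract was taken from the first C of an unbroken run of C and T, had at least 5 letters, and began at most 5 bases from the start, on the gene's strand. By this definition 4 of the 11 annotated starts of the 9 members with a RefSeq promoter entry had a tract, in Gas5, Snhg12, Snhg8 and Meg3. Gas5 and Meg3 each have another start without one, and the Gas5 start shown is the one with it. The run in Wincr1, 16 letters long, begins 7 bases before the start and so lies outside the limit. Of all 32851 promoters, 16.1% had a tract, and 29.0% had one beginning at most 10 bases from the start. Among comparison lists, 3 of 14 starts of other host genes and 3 of 14 of TOP mRNAs had one, so the definition missed most of the mRNAs known for the motif. Neat1 had no entry.

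Counts on genes totaled 11881214 to 26728205 per library. For the 10 libraries of 6-3-A6 the description line in the labels names the other fraction, whereas title, source and cell type were followed here. Summed endothelial markers were 206 to 334 CPM (counts scaled to the library total, with TMM normalization factors) in the 10 input and 1283 to 7311 CPM in the 10 IP libraries named this way. The 17 endothelial markers, among them Cdh5 and Emcn, all rose in IP, and the median of their log2 fold changes was 4.52. Endothelial content of the IP was uneven. As a score, the mean log2 CPM of endothelial markers minus the mean of macrophage, fibroblast and epithelial markers, it lay between 0.148 in control IgG tumor 4 and 3.34 in control IgG tumor 3. The study kept IP libraries 2, 4 and 5 of control IgG and 1, 3 and 4 of 6-3-A6 after a principal component analysis. Input library 4 of 6-3-A6 stood apart with the smallest TMM scaling factor, 0.680. In bulk tissue, fewer cells of a type and less RNA per cell cannot be told apart, and IP and input differ both in the cells sampled and in ribosome association.

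Counting covered whole gene spans, introns included. Malat1 (chr19:5845717-5852704, minus strand) held 307643 counts over the 20 libraries. Neat1 (chr19:5874736-5895898, minus) held 38836 and Gas5 (chr1:160861992-160866116, plus) held 51885. Snhg1 (chr19:8700801-8703811, plus) held 11810, Snhg8 (chr3:123301194-123302053, minus) 6991 and Snhg12 (chr4:132035932-132038762, plus) 5373 counts. Wincr1 (chr4:88968545-89002851, plus) held 4583, Meg3 (chr12:109506879-109538165, plus) 1264 and Dancr (chr5:74253695-74256067, plus) 247 counts. These coordinates are those of the count table and are on GRCm39. The spans of host genes are shared in part with other genes, over 26.6% of Gas5, 20.7% of Snhg1, 16.6% of Snhg12 and 15.1% of Snhg8, and the genes inside the members held 0 counts. The span of Wincr1 overlapped no other gene.

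Kcnq1ot1 (chr7:142757195-142850286, minus) was listed at 0 counts in all 20 libraries. Its span lies wholly inside Kcnq1 (chr7:142660099-142980779, plus), which held 7454 counts. A count of 0 says nothing here about the RNA, because 100% of the span is shared and the strandedness of counting is not given in the sources used here.

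Per kilobase of gene span, the mean level in control IgG input was 162 CPM for Malat1, 45.2 for Gas5, 33.5 for Snhg8, 15.7 for Snhg1, 8.47 for Snhg12 and 5.95 for Neat1 (n = 5). The remaining levels per kilobase were 0.568 for Wincr1, 0.389 for Dancr and 0.178 for Meg3. By this measure Malat1 was thus the most abundant member, and Wincr1, Dancr and Meg3 were the least abundant. The measure divides by introns as well. Wincr1 spans 34307 bases, whereas its longest annotated transcript holds 618, so its place depends on the length used. Before division by length, Wincr1 averaged 19.5 CPM in control IgG input, beside 24.0 CPM for Snhg12.

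**Figure D1:**
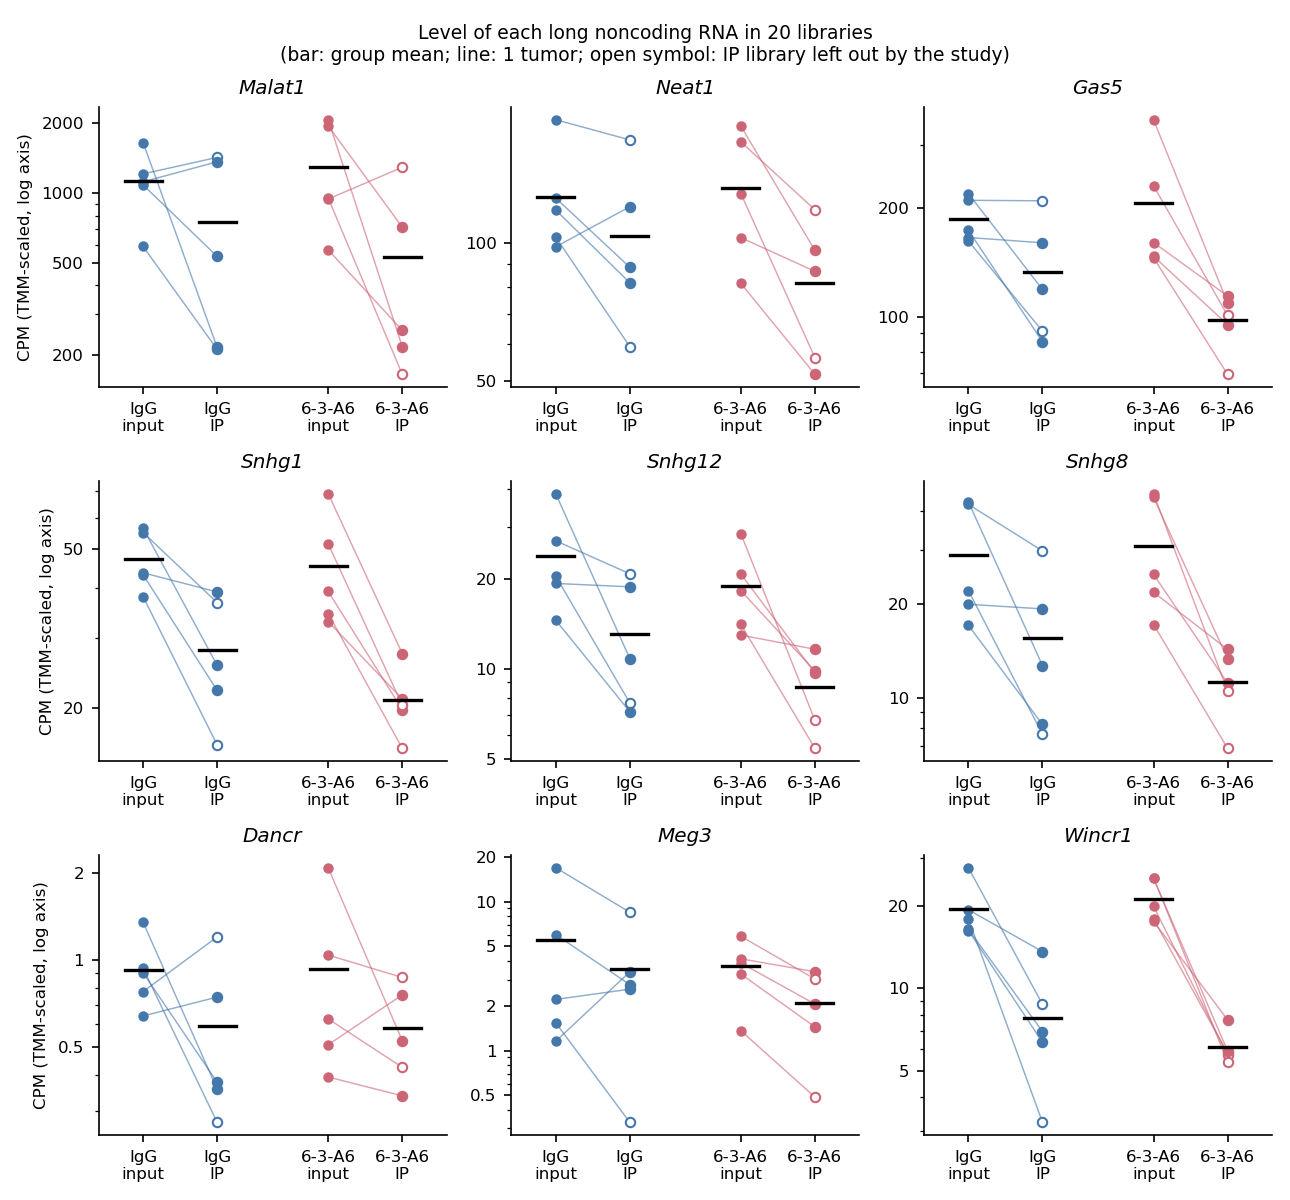
TMM-scaled CPM (log axis) of the 9 lncRNAs with counts in each of the 20 libraries, with lines joining input and IP of one tumor, bars for group means and open symbols for IP libraries that the study left out. For Wincr1 every IP value, at most 13.6 CPM, lies below every input value, at least 16.2 CPM. For the other 8 the fractions overlap. The share of all genes without overlap was not counted.

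The architectural RNA Malat1 was lower in IP in most tumors but not in all. In control IgG tumors 1 to 5, the input held 1211, 1085, 589, 1119.5 and 1653 CPM. The IP of the same tumors held 1427, 534, 212, 1365 and 216 CPM. Tumors 1 and 4 therefore had more Malat1 in IP than in input, and tumor 5 had far less. In 6-3-A6 tumors 1 to 5, input levels were 1951, 953, 569, 2073 and 943 CPM. Their IP levels were 714, 166, 256, 218 and 1293 CPM. Only tumor 5 of this group had more in IP. The within-tumor log2 ratio of IP over input averaged -0.98 ± 1.34 in control IgG and -1.58 ± 1.42 in 6-3-A6 tumors (SD, n = 5 each), so the spread between tumors was about as large as the mean. Ratios were below 0 in 7 of 10 tumors, and the IP mean was 52.7% of the input mean.

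Neat1, the scaffold of paraspeckles, was the member retained most in IP by the mean over all 10 tumors, with a log2 ratio of -0.52. Dancr was close, at -0.55, and in 6-3-A6 tumors Dancr had the higher mean, -0.43 against -0.70. Control IgG input held 185, 125, 103, 98.0 and 118 CPM and the IP held 168, 88.4, 59.3, 119.8 and 81.8 CPM. In 6-3-A6 tumors, input held 179.6, 128, 103, 81.5 and 166 CPM and the IP held 96.2, 56.1, 86.6, 51.6 and 118 CPM. The fractions overlapped in both groups, although 9 of 10 tumors had less in IP. The log2 ratio was -0.34 ± 0.42 in control IgG and -0.70 ± 0.36 in 6-3-A6 tumors (SD, n = 5 each), and the IP mean was 71.9% of the input mean.

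The snoRNA hosts Gas5, Snhg1, Snhg12 and Snhg8 were each lower in IP in 10 of 10 tumors. For Gas5, a growth-arrest transcript, control IgG input held 211, 219.9, 162, 166 and 174 CPM and the IP held 210.0, 119, 91.2, 161 and 85.3 CPM. In 6-3-A6 tumors, input held 147, 146, 161, 353 and 231 CPM and the IP held 95.1, 69.2, 114, 109 and 101 CPM. In control IgG tumors 1 and 4 the fractions were nearly equal, with log2 ratios of -0.005 and -0.049, whereas in the 6-3-A6 group every IP value lay below every input value. The sign in control IgG tumor 1 depends on the TMM factors, 0.930 for its input and 1.02 for its IP. The highest input value, 353 CPM, was in the 6-3-A6 input library 4 that stood apart. The Gas5 log2 ratio was -0.56 ± 0.49 in control IgG and -1.02 ± 0.48 in 6-3-A6 tumors (SD, n = 5 each).

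For Snhg1, a host of several C/D box snoRNAs, control IgG input held 55.1, 56.5, 38.1, 43.7 and 43.2 CPM and the IP held 36.8, 25.6, 16.2, 39.1 and 22.2 CPM. In 6-3-A6 tumors, input ranged from 33.0 to 69.0 CPM and the IP from 15.9 to 27.4 CPM. The ranges did not overlap under 6-3-A6 and met slightly under control IgG, where IP of tumor 4 exceeded input of tumor 3. Ratios were -0.81 ± 0.44 and -1.08 ± 0.29 on the log2 scale, the smallest spread among the members under 6-3-A6 (SD, n = 5 each).

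Snhg8, the host of Snora24, ranged from 17.1 to 42.8 CPM in control IgG input and from 7.63 to 29.8 CPM in the IP. Under 6-3-A6 it ranged from 17.2 to 45.5 CPM in input and from 6.87 to 14.3 CPM in the IP. The ranges overlapped only in the control IgG group. The log2 ratio was -0.97 ± 0.71 in control IgG and -1.38 ± 0.57 in 6-3-A6 tumors (SD, n = 5 each), and the IP mean was 44.9% of the input mean.

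Snhg12, a host of H/ACA and C/D box snoRNAs, ranged from 14.6 to 38.7 CPM in control IgG input and from 7.18 to 20.8 CPM in the IP. Under 6-3-A6, input ranged from 13.0 to 28.4 CPM and the IP from 5.41 to 11.6 CPM, without overlap. Its log2 ratios were -0.93 ± 0.73 and -1.11 ± 0.69 (SD, n = 5 each). The IP mean was 50.7% of the input mean.

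Dancr, also a snoRNA host, known for holding back differentiation, was close to the limit of counting. Libraries held 5 to 20 counts, and levels lay between 0.274 and 2.09 CPM. IP was lower than input in 7 of 10 tumors, with log2 ratios of -0.68 ± 0.99 in control IgG and -0.43 ± 0.84 in 6-3-A6 tumors (SD, n = 5 each).

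The imprinted RNA Meg3 varied widely between control IgG tumors, by 14.7-fold from the lowest to the highest CPM in input and 25.8-fold in IP. Control IgG input held 16.9, 6.01, 1.53, 2.20 and 1.15 CPM and the IP held 8.49, 2.77, 0.329, 2.58 and 3.37 CPM. Tumor 1 was the highest in both fractions, and tumors 4 and 5 had more Meg3 in IP than in input. The log2 ratio of tumor 5, 1.46, was the highest of any member in any tumor, on 18 input and 86 IP counts. In 6-3-A6 tumors, input held 4.13, 1.36, 3.26, 3.87 and 5.85 CPM and the IP held 3.39, 0.487, 1.44, 2.05 and 3.02 CPM, lower in each of the 5 tumors. Log2 ratios were -0.46 ± 1.31 in control IgG and -0.90 ± 0.38 in 6-3-A6 tumors (SD, n = 5 each).

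Wincr1, a transcript named for its induction by WNT signaling, was the member depleted most. Control IgG input held 27.5, 16.2, 17.9, 19.3 and 16.4 CPM and the IP held 8.73, 6.35, 3.24, 13.6 and 6.95 CPM. In 6-3-A6 tumors, input held 17.9, 19.9, 17.6, 25.2 and 25.3 CPM and the IP held 5.78, 5.72, 7.67, 5.90 and 5.38 CPM. Every IP library lay below every input library, across both treatments. The share of all genes without overlap, over both treatments or within 6-3-A6 alone, was not counted. The log2 ratio was -1.43 ± 0.70 in control IgG and -1.77 ± 0.41 in 6-3-A6 tumors (SD, n = 5 each), and the IP mean was 34.1% of the input mean.

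**Figure D2:**
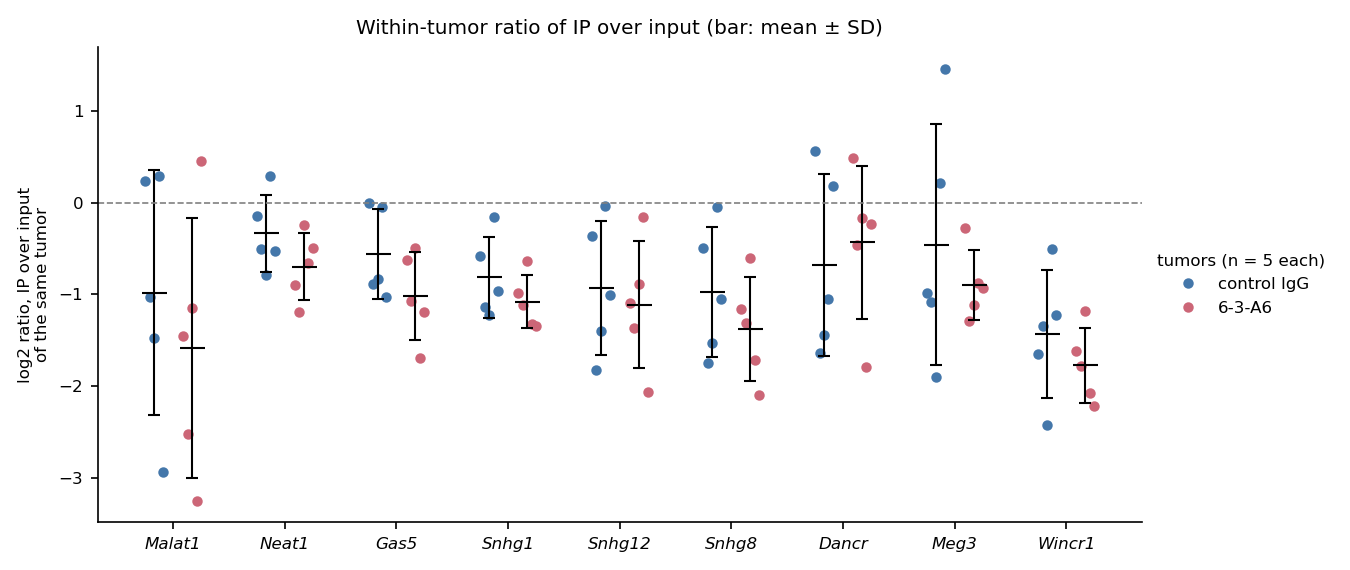
Log2 ratio of IP over input within each tumor for the 9 lncRNAs with counts, with 5 tumors per treatment, and the mean and SD as bars. All 10 tumors lie below 0 for Gas5, Snhg1, Snhg12, Snhg8 and Wincr1, and 7 to 9 tumors do for Malat1, Neat1, Dancr and Meg3. For Gas5 the value nearest 0 is -0.005, in control IgG tumor 1.

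Against the whole table, edgeR's quasi-likelihood test with Benjamini-Hochberg adjustment called 2695 genes (19.8% of 13582 tested) higher and 2902 (21.4%) lower in IP at an adjusted p under 0.05. Without TMM factors the median of all genes moved by 0.18 on the log2 scale and the split became 3824 of 5433 calls higher, against 2695 of 5597. Being lower in IP in every tumor, as 5 of 9 members were, held for 1409 genes (10.4%). As this contrast chose the members, nothing is read from this count. The fitted log2 fold changes were -1.57 (SE 0.19) for Wincr1, -1.18 (SE 0.27) for Snhg8, -1.01 (SE 0.23) for Snhg12 and -0.95 for both Snhg1 (SE 0.17) and Malat1 (SE 0.41). They were -0.80 (SE 0.20) for Gas5, -0.75 (SE 0.49) for Meg3, -0.63 (SE 0.33) for Dancr and -0.49 (SE 0.20) for Neat1. Of all genes tested, 0.950% lay below Wincr1 and 22.8% below Neat1, the ends of the members' range. The median over the members was -0.95, against -0.05 over all genes. As the members were chosen on this contrast, these ranks and medians are a description, and nothing is read from their distance to all genes.

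Depletion from IP was also seen in lncRNAs outside the members. Among 755 tested lncRNA genes, the members included, 286 (37.9%) fell and 64 (8.48%) rose in IP, and their median was -0.51 on the log2 scale. Among 12216 protein-coding genes, 2415 (19.8%) fell and 2565 (21%) rose, with a median of -0.02. Without TMM factors 190 lncRNA genes fell and 88 rose, against 1281 and 3649 protein-coding genes. With the tumor as a block, which uses the pairing of IP and input, 332 lncRNA genes fell and 78 rose, against 3143 and 3254 protein-coding genes. With the tumors of the kept libraries alone, 153 of 805 lncRNA genes fell and 48 rose, against 1340 and 1647 of 12311 protein-coding genes. The gene lists that follow were chosen with earlier results of these data known, so their counts and p-values may not be independent of that choice. Of the 11 tested snoRNA hosts outside the members, 8 fell and 0 rose, with a median of -0.85. Snhg4 fell by 1.18 (SE 0.20, adjusted p = 6.91e-05), from 15.3 ± 3.02 CPM in input to 6.88 ± 2.86 in IP (SD, n = 10 each), and Snhg15 by 1.36 (SE 0.25, adjusted p = 0.000192). Snhg17, Epb41l4aos, Snhg18, Zfas1 and Snhg5 fell as well, and each of these 7 was lower in IP in 10 of 10 tumors. Snhg6 did not pass, with -0.40 (SE 0.24, adjusted p = 0.193), but did with the tumor as a block, with -0.46 (SE 0.13, adjusted p = 0.00984) and without control IgG IP 1 (-0.61, adjusted p = 0.0256). A share of 88.8% of its span is covered by other genes.

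Of 26 tested regulatory and imprinted lncRNAs outside the members, 15 fell and 2 rose, with a median of -0.68. Without TMM factors 10 fell, and with the tumors of the kept libraries alone 8 of 27 did. H19, an imprinted growth regulator, fell by 1.44 (SE 0.38, adjusted p = 0.00463), and Mir142hg, the host of a hematopoietic microRNA, by 1.62 (SE 0.47, adjusted p = 0.0093). Pvt1, Lockd, Morrbid, Oip5os1 and Norad fell too. Norad, a cytoplasmic RNA that binds Pumilio proteins, changed least of these, with -0.39 (SE 0.13, adjusted p = 0.0223), and passed neither without TMM factors (-0.19, adjusted p = 0.202) nor without the low-count filter or in the kept tumors alone. Oip5os1 was lost under the same alternatives and without 6-3-A6 input 2 (-0.39, adjusted p = 0.0503), and Morrbid without TMM factors (-0.28, adjusted p = 0.0864). Tug1 did not pass, with 0.10 (SE 0.17, adjusted p = 0.652), from 109 ± 35.3 to 118 ± 22.8 CPM (SD, n = 10 each). Rn7sk, a nuclear regulator of transcription elongation and the single structural noncoding RNA tested, fell by 1.85 (SE 0.48, adjusted p = 0.00439) but did not pass with the tumors of the kept libraries alone (-1.24, adjusted p = 0.0599).

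Airn and Bvht of that list rose in IP, and they are named because of their values. Airn, the imprinted transcript antisense to Igf2r, rose by 1.98 (SE 0.30, adjusted p = 2.24e-05), from 1.26 ± 0.563 to 4.91 ± 1.89 CPM (SD, n = 10 each), and was higher in IP in 10 of 10 tumors. Its span is shared with other genes over 51.3%, so without known strandedness its counts are uncertain. Bvht, known from cardiovascular commitment of stem cells, rose by 1.00 (SE 0.26, adjusted p = 0.00432), from 3.81 ± 1.07 to 7.65 ± 4.1 CPM, and was higher in IP in 9 of 10 tumors.

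**Figure D3:**
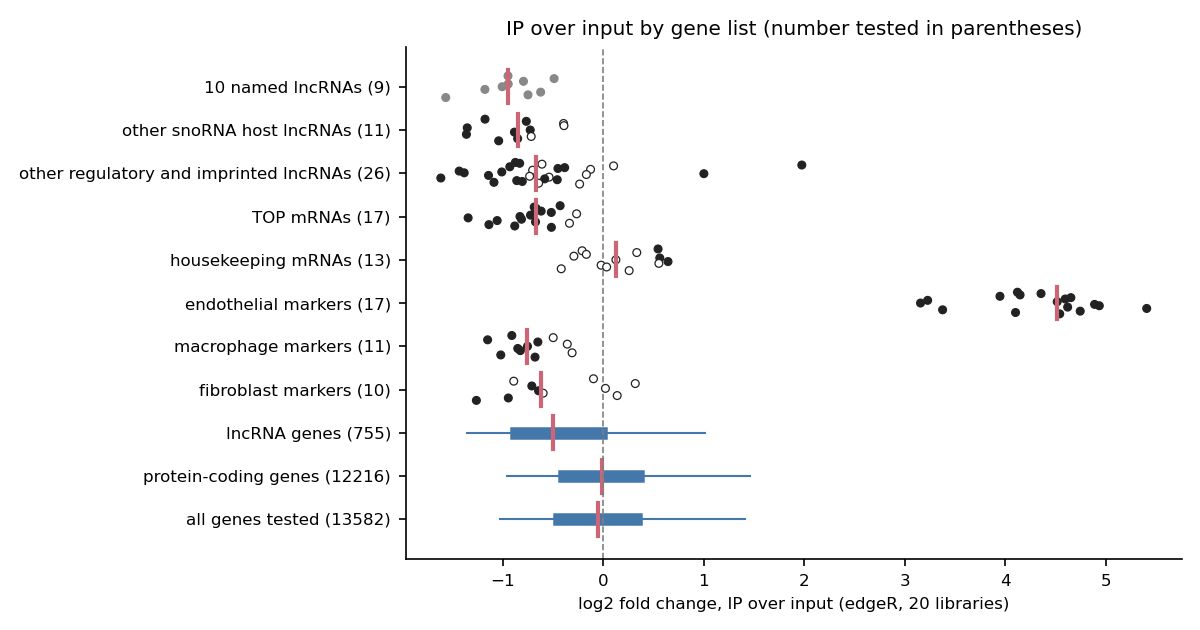
Log2 fold change of IP over input (edgeR, 20 libraries) for genes of each list, with filled black points past the threshold, open points not past it, grey points for the lncRNAs chosen on this contrast, and red bars for medians; thick blue lines span the quartiles and thin lines the 5% to 95% quantiles of gene classes. Medians were -0.95 for the named lncRNAs, -0.85 for other snoRNA hosts, -0.68 for TOP mRNAs, 0.12 for housekeeping mRNAs and 4.52 for endothelial markers.

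Some mRNAs of the translation machinery and of nonendothelial cells were also lower in IP. Of 17 TOP mRNAs, 15 fell and 0 rose, with a median log2 fold change of -0.68, but 9 fell without TMM factors and 7 with the tumors of the kept libraries alone. Among them, Eef1a1, the translation elongation factor, fell by 0.82 (SE 0.19, adjusted p = 0.0017). Of 11 tested macrophage markers, 8 fell, with a median of -0.76. Medians were -0.62 for 10 fibroblast, -0.66 for 5 epithelial, -0.26 for 6 mural and -1.0 for 6 lymphoid markers, of which 4, 2, 1 and 3 fell (6, 3, 2 and 5 with the tumor as a block). Without TMM factors 2 fibroblast, 1 epithelial and 1 lymphoid marker fell. The lymphoid count also rested on single libraries. It was 5 without 6-3-A6 IP 5, with a median of -1.52, and 1 without control IgG input 5 or IP 2 or 3, or without 6-3-A6 input 5 or IP 1, 2, 3 or 4. The lymphoid median was -0.51 without 6-3-A6 input 5. Without 6-3-A6 input 4 the epithelial median was -0.365, with 6 markers tested, and without control IgG input 1 the mural median was -0.125. The epithelial count was 1 without control IgG input 1 or IP 3, 4 or 5, or without 6-3-A6 input 1, 3 or 4 or IP 1, 3 or 4. Of 13 housekeeping mRNAs, 3 rose and 0 fell, with a median of 0.12. Without TMM factors 7 rose, and with the tumor as a block 5 rose and 1 fell. Only 1 rose without control IgG IP 1, 6-3-A6 input 1, 6-3-A6 IP 4 or 6-3-A6 IP 5, where 1 fell in the last case, and 5 rose and 1 fell without 6-3-A6 input 4. The part of cell composition in the lower IP values of the lncRNAs was not tested.

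Ratios differed between tumors, and members of one tumor did not always go together. In control IgG tumor 4, whose IP had the lowest endothelial score (0.148), 5 of 9 members had their highest ratio, and the median member ratio was -0.05, between -1.05 for Dancr and 0.29 for Malat1 and Neat1. In 6-3-A6 tumor 2, with the next lowest score (0.610), all 9 were below 0, with a median of -1.29. The lowest median, -1.69, was in 6-3-A6 tumor 4, with a score of 3.02, and control IgG tumor 1, with a score of 2.87, had a median of -0.37. The input of 6-3-A6 tumor 4 is the library that stood apart, with a TMM factor of 0.680 against 1.09 for its IP. The ratios of this tumor, and its place as the lowest, therefore depend on that scaling. Deviations of its IP and input from the group means correlated with r = -0.078. In 6-3-A6 tumor 5 Malat1 had its highest ratio, 0.46, while Snhg1 (-1.34), Snhg12 (-2.06) and Snhg8 (-2.10) had their lowest. In control IgG tumor 5 Malat1 was at -2.93 and Meg3 at 1.46. The order of tumors by score was not the order by ratio. Without control IgG tumor 4 the mean ratio of Neat1 was -0.61 and that of Wincr1 was -1.72, against -0.52 and -1.60 over all 10 tumors.

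**Figure D4:**
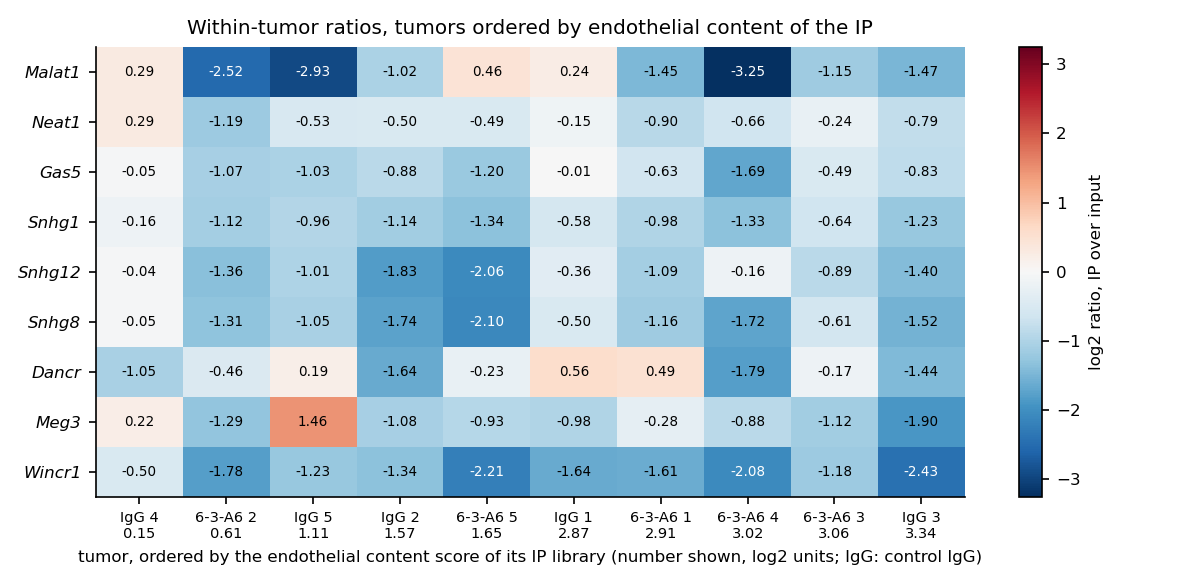
Log2 ratio of IP over input for each lncRNA (rows) and tumor (columns), with tumors ordered from the lowest to the highest endothelial content score of their IP library; blue is lower and red higher in IP. The leftmost tumor, control IgG 4, has ratios near 0 for most members, and Malat1 swings from 0.46 to -3.25 between tumors. The value of -3.25 is that of 6-3-A6 tumor 4, whose input library had the smallest TMM factor, 0.680.

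Correlations between host genes across libraries differed by fraction and by pair. Pearson's r of log2 CPM among Gas5, Snhg1, Snhg12 and Snhg8 lay between 0.890 and 0.973 over the 10 IP libraries and between 0.066 and 0.919 over the 10 input libraries. Dancr correlated with these 4 with r from 0.195 to 0.361 in IP and from 0.131 to 0.855 in input. For Malat1 and Neat1, neighbors on chromosome 19, r was 0.900 in IP and 0.138 in input. Over all 20 libraries the genes most like Malat1 were Ero1b (r = 0.898), Mfsd14a (0.874) and Sc5d (0.867). Those most like Gas5 were Sec11c (0.964), Rpl39 (0.959) and Ciao2a (0.955), and those most like Wincr1 were mt-Tp (0.952), mt-Rnr1 (0.951) and Klra4 (0.947), 2 of them mitochondrial RNAs. These values describe libraries that share fractions and scaling factors, and the IP and input of a tumor share its tissue.

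The comparison of 6-3-A6 with control IgG asked whether Notch4 blockade altered these RNAs, and it played no part in choosing them. With the filter on low counts, none of the members passed the test in any comparison of 6-3-A6 with control IgG or in the interaction. Among the 6 IP libraries that the study kept, 646 of 13999 genes (4.61%) were called and 0 of 9 members. At an unadjusted p under 0.05 there were 2724 genes and 0 members, with 8 log2 fold changes below and 1 above 0 (without TMM factors Snhg8 also lay above 0, at 0.02). Malat1 averaged 705 ± 593 CPM in control IgG and 396 ± 276 CPM in 6-3-A6 (SD, n = 3 each), and the groups overlapped. Its log2 fold change was -0.85 (SE 0.60, 95% interval -2.18 to 0.48, edgeR adjusted p = 0.489). Without control IgG IP 4 it was 0.07, so its direction rests on that library. Without the filter on low counts it passed, at -0.84 (edgeR adjusted p = 0.0311). Wincr1 differed by -0.49 (SE 0.31, 95% interval -1.17 to 0.19, edgeR adjusted p = 0.423), from 8.97 ± 4.03 to 6.45 ± 1.06 CPM (SD, n = 3 each). The remaining members lay between -0.39 for Meg3 and 0.04 for Dancr, with adjusted p values from 0.449 to 0.977.

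These kept groups also differed in cell content. Summed endothelial markers were 1585 to 5132 CPM in the 3 control IgG and 5145 to 6489 CPM in the 3 6-3-A6 libraries, without overlap, and none of the 17 markers was at 0 throughout. Summed macrophage markers were 6479.5 to 7608 CPM and 3201 to 3838 CPM, also without overlap, with 1 of 12 markers at 0 throughout. Fibroblast markers (1537 to 3199 and 703 to 1508 CPM), mural markers (122 to 164 and 72.2 to 109 CPM), epithelial markers (319 to 386 and 166 to 235 CPM) and lymphoid markers (21.4 to 33.9 and 17 to 20.7 CPM) were likewise lower under 6-3-A6 without overlap. Their part in the members' values was not tested.

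Over all 10 IP libraries, edgeR called 0 of 13602 genes (0%), while 292 had an unadjusted p under 0.05, and DESeq2 called 0. Of the 8 members tested, 0 had an unadjusted p under 0.05, and all 8 estimates were below 0. The estimate for Gas5 was -0.46 (SE 0.25, 95% interval -1.0 to 0.08, edgeR unadjusted p = 0.0908, adjusted p = 1). For Snhg12 it was -0.60 (SE 0.33, 95% interval -1.31 to 0.11, edgeR unadjusted p = 0.0889, adjusted p = 1). For Snhg1 it was -0.43 (95% interval -0.96 to 0.10) and for Snhg8 -0.47 (95% interval -1.25 to 0.30). Dancr did not pass the filter on low counts.

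In input, edgeR called 0 of 13683 genes (0%), while 180 had an unadjusted p under 0.05, and DESeq2 called 0. Of the 9 members, 5 estimates were above and 4 below 0 (Snhg8 lay below 0, at -0.033, without TMM factors), from -0.62 for Meg3 (95% interval -2.07 to 0.82) to 0.18 for Malat1 (95% interval -0.60 to 0.96). Wincr1 was the most precise, with 0.10 (95% interval -0.33 to 0.53).

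The interaction asked whether the IP-over-input ratio differed between treatments. EdgeR called 0 of 14488 genes (0%), while 125 had an unadjusted p under 0.05, and DESeq2 called 0. All members but Dancr had estimates below 0, that is, lower ratios under 6-3-A6, although Snhg12 was at 0.24 over the kept tumors alone. Gas5 had the smallest p, with -0.60 (SE 0.37, 95% interval -1.37 to 0.17, edgeR unadjusted p = 0.118, adjusted p = 1). Malat1 had -0.70 with a 95% interval from -2.40 to 1.00. The interaction shares its libraries with the IP and the input comparison, so its estimates are not independent of theirs.

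**Figure D5:**
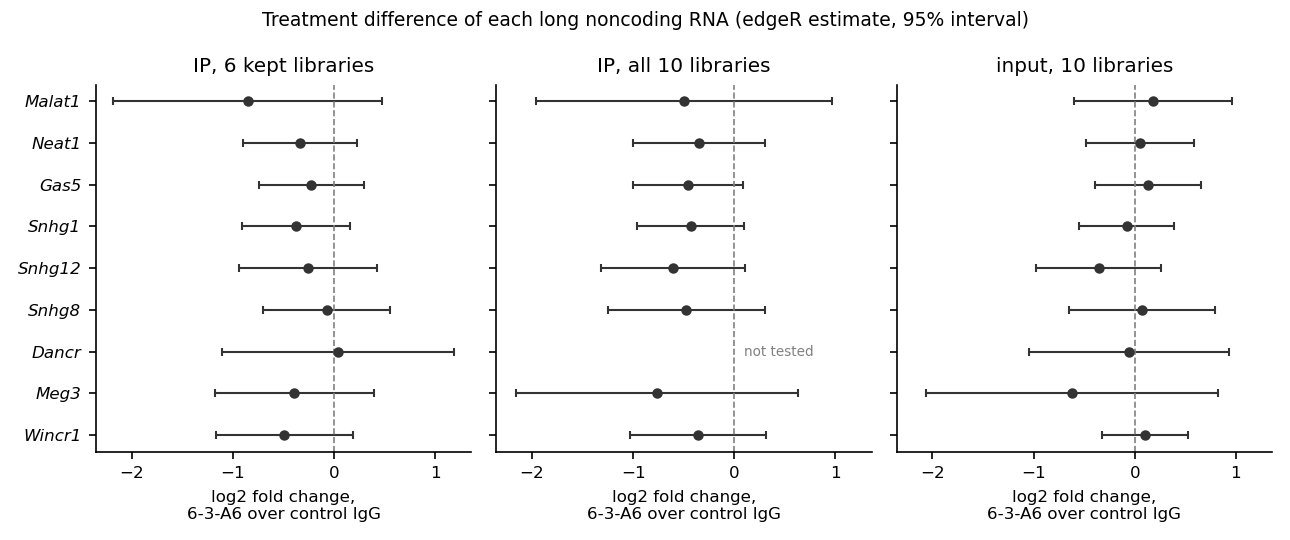
Log2 fold change of 6-3-A6 over control IgG with 95% intervals from edgeR for each lncRNA in the 6 kept IP libraries, all 10 IP libraries and the 10 input libraries; Dancr was not tested over all IP libraries. Every interval includes 0.

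Among the other host and regulatory lncRNAs, Bvht alone was called in a treatment comparison, in the 6 kept IP libraries, where 0 of 10 hosts and 1 of 27 regulatory lncRNAs passed. It was named after its values were seen. Bvht held 4.52, 4.28 and 3.65 CPM in control IgG IP 2, 4 and 5 and 8.52, 10.1 and 10.3 CPM in 6-3-A6 IP 1, 3 and 4, a log2 fold change of 1.19 (SE 0.22, edgeR adjusted p = 0.0204). In the libraries that the study left out, it held 16.9 and 8.34 CPM in control IgG IP 1 and 3 and 4.2 and 5.79 CPM in 6-3-A6 IP 2 and 5. Over all 10 IP libraries the difference was 0.04 (SE 0.42, edgeR adjusted p = 1), so the call rests on which libraries are kept. Endothelial markers also differed between these libraries. They summed to 7311 and 7177 CPM in the left-out control IgG IP 1 and 3 and to 1283 and 5115 CPM in 6-3-A6 IP 2 and 5, beside 1585 to 5132 CPM in the kept control IgG and 5145 to 6489 CPM in the kept 6-3-A6 libraries. Their part in the Bvht call was not tested. The call was also lost without 6-3-A6 IP 3 (edgeR adjusted p = 0.0902) and without 6-3-A6 IP 4 (edgeR adjusted p = 0.0575). Its log2 fold change lay between 1.11 and 1.29 when 1 of the kept libraries was left out.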

How the data were processed

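The authors aligned single reads of 100 bases with STAR 2.7.4a and counted them per gene with featureCounts 2.0.1; the submitters' processing notes also list featureCounts 1.5.2 and the builds mm10 and GRCh38, and the coordinates in the table are those of GRCm39. The raw counts of 20 libraries were used as deposited. A second table by the authors holds size-factor-scaled signal of 6 IP libraries and DESeq2 fold changes, test statistics and p-values. Its scaled signal, as deposited, served only to identify the kept libraries, matched to the count table by shared column names (raw counts divided by a constant for 100% of genes, tolerance 1e-06); its comparison columns were not used. Strandedness is not given in the sources used here.

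Counts were tested with edgeR 4.0.16 (TMM, filterByExpr, quasi-likelihood F test, Benjamini-Hochberg over all genes tested, threshold 0.05) in R 4.3.3. IP against input had treatment as a term. CPM used library totals times TMM factors, and log2 ratios a prior count of 2. Intervals are at 95%. Each fit was tested on simulated counts. The members and all gene lists were chosen with earlier results of these data known. Named outside the members are the tested lncRNAs of highest input CPM, 8 per list, up to 3 mRNAs per marker list, and the 3 genes of highest r for Malat1, Gas5 and Wincr1. Gene classes are those of GENCODE M21, matched by symbol. IP and input are aliquots of one supernatant and so are paired by tumor: deviations from the group means correlated with r from -0.078 to 0.699. Alternatives were DESeq2 1.42.0, its size factors, library totals, no filter, the replicate block, each library left out, the tumors of the kept libraries alone, and a prior count of 0.5. Where nothing says that tumors of one treatment came from separate cohorts, p-values measure the spread between these tumors.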

Additional observations from a re-analysis of the deposited data

Results flagged for a closer look

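Among the 54 groups of 5 values examined (36 of CPM per lncRNA and group and 18 of within-tumor ratios), 2 held a value far from the other 4, by a criterion that chance meets in about 1 in 20 groups. Wincr1 stood at 27.5 CPM in control IgG input 1, against 19.3 CPM in the next highest library, a gap of 0.726 of the group's range. Wincr1 also stood at 7.67 CPM in 6-3-A6 IP 3, against 5.90 CPM in the next highest, a gap of 0.776 of the range.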

How the results depend on the processing

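No member was called in the comparisons of all 10 IP libraries, of input or of the interaction under any alternative, nor was any gene. Among the 6 kept IP libraries, 1459 genes were called without a filter on low counts and 1251 by DESeq2, against 646. Without the filter 1 member was called, Malat1 (-0.84, adjusted p = 0.0311); over the other alternatives none was. Leaving out 1 library gave 9 genes (without 6-3-A6 IP 3) to 653, and 161 without 6-3-A6 IP 4, 188 without control IgG IP 4 and 345 without 6-3-A6 IP 1; an arm left with 2 libraries is assumed to vary like the other. IP against input chose the members, so how many of them lie past its threshold follows from that choice. That number cannot be set against all genes, and nothing is read from it about the members. It is given only to show how it moved with the processing. It was 5 in the main fit, 8 with the tumor as replicate block, 8 without control IgG IP 1, and 5 to 8 when libraries were left out. Of all genes, 21.4% were called lower in the main fit and 27.3% with the block. The share was 22.2% without control IgG IP 1, and 18.9% to 22.2% when libraries were left out. With the tumors of the kept libraries alone 3347 genes were called. The block changed no other call of members. In the treatment comparisons equal numbers do not mark related tumors (r of deviations from -0.326 to 0.366), and a block on the number gave 0 calls; for the 6 kept libraries no paired analysis was possible because the groups share only number 4. The cause of these shifts was not tested.

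Estimates that changed sign were all uncalled. Without TMM factors Snhg8 became 0.02 in the kept IP and -0.033 in input, and Snhg12 became 0.24 in the interaction over kept tumors. Leaving out 1 library, estimates in the kept IP ranged from -1.59 to 0.074 (Malat1), -0.41 to 0.059 (Gas5), -0.53 to 0.21 (Snhg12), -0.32 to 0.31 (Snhg8) and -0.26 to 0.32 (Dancr). In all IP libraries Bvht ranged from -0.13 to 0.56. In input they ranged from -0.04 to 0.37 (Malat1), -0.09 to 0.23 (Neat1), -0.13 to 0.24 (Gas5), -0.27 to 0.013 (Snhg1), -0.11 to 0.27 (Snhg8), -0.54 to 0.14 (Dancr) and -0.88 to 0.42 (Meg3). In the interaction they ranged from -0.19 to 0.52 (Dancr) and -1.19 to 0.48 (Meg3). Mean within-tumor ratios stayed below 0 and moved by less than 1 SD under every alternative. Dancr rests on 5 to 20 counts per library, so its values carry a large counting error; how much of any interval is counting error was not tested.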
